A study of Mus musculus with 6 samples.

Results

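Fatty acid synthesis and desaturation were followed through 10 genes, listed by name with earlier results of these data known: Srebf1, Acly, Acss2, Acaca, Fasn, Elovl6, Scd1, Scd2, Fads1 and Fads2. All 10 were found among the 55341 gene symbols of the count tables, and all 10 passed the filter on low counts. Poly(A) RNA-seq measured the transcripts of primary mouse cerebellar granule neurons (CGNs), with 3 libraries treated with the vehicle DMSO and 3 treated with GSK-126, an inhibitor of the H3K27 methyltransferase EZH2. By the study's methods, both groups were prepared from cerebella of CD1-IGS pups near the end of the first postnatal week, purified on a Percoll gradient, and given cytosine arabinoside on the second day in culture to stop non-neuronal cells from dividing. Each replicate number stands for neurons from pooled litters, and the same number in both groups is taken as a pair. The labels state neither the dose nor the day of addition. The methods describe a single addition on the first or the third day with harvest on the fifth, and a day code in the table names was read as the first.

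The libraries held 8058760 to 12047837 counts over genes, and GSK-126 replicate 1 was the deepest. The label was checked against cell type markers. All 9 granule neuron markers were detected, with summed levels of 2797 to 5954 CPM (counts over library size, adjusted by TMM factors). Astrocyte and fibroblast genes were detected too. Their summed levels were 2414 to 7561 CPM for 9 astrocyte markers and 7067 to 10633 CPM for 7 fibroblast and mural markers. All values are thus those of a mixed culture. In bulk samples fewer cells of a type and less RNA per cell cannot be told apart. Trem2, a defining microglia gene, was at 0 in every library, although 7 other microglia markers had reads.

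Cells build fatty acids from acetyl-CoA. ATP citrate lyase (Acly) makes it from citrate and Acss2 makes it from acetate, acetyl-CoA carboxylase (Acaca) turns it into malonyl-CoA, and fatty acid synthase (Fasn) assembles palmitate. Elovl6 lengthens palmitate, the stearoyl-CoA desaturases Scd1 and Scd2 put in a first double bond, and Fads1 and Fads2 desaturate the long polyunsaturated chains that are abundant in neuronal membranes. Srebf1 encodes SREBP1, a membrane-bound transcription factor that is released by proteolysis and that activates most of these genes. In the brain the pathway supplies growing neurites and glial membranes, and Scd2 is known as the main desaturase gene of that tissue.

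Per kilobase of exon, the desaturases were the most abundant members. With DMSO, Scd2 stood at 254 ± 17.7 CPM per kb (SD, n = 3), followed by Fads2 at 85.7 ± 10.9 and Fads1 at 48.7 ± 1.18. Acly (36.7 ± 2.96), Fasn (31.6 ± 3.34) and Scd1 (29.0 ± 0.547) formed a middle group. Srebf1 (18.1 ± 4.06) and Elovl6 (14.8 ± 2.7) were lower, and Acaca (5.19 ± 0.601) and Acss2 (4.24 ± 0.825) were lowest. In this order the DMSO values of neighbouring genes overlapped between Fasn and Scd1, between Srebf1 and Elovl6, and between Acaca and Acss2, and the other neighbours were separate. Reads that align to several places were not counted, so the levels of the similar genes Scd1 and Scd2 may be too low to a degree that these tables do not show.

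**Figure D1:**
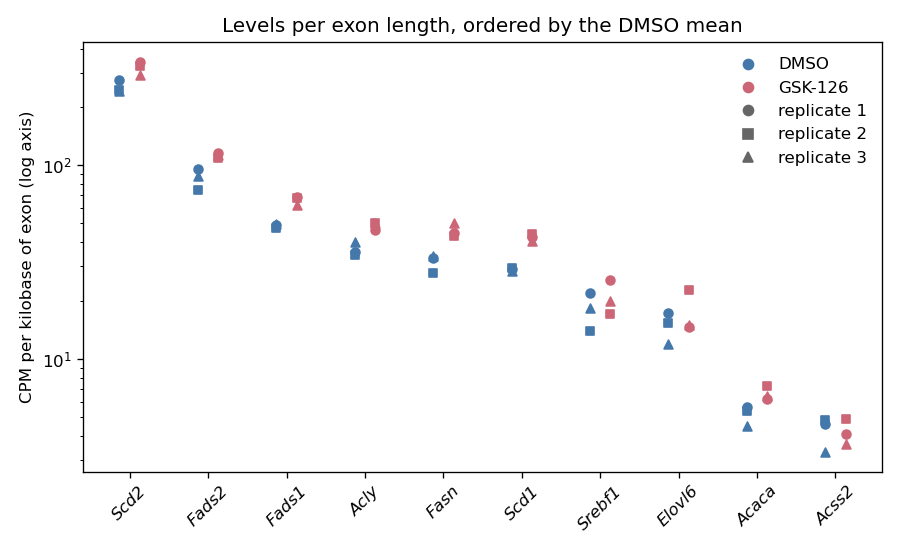
Level of each gene in CPM per kilobase of exon (log axis), with genes ordered by their DMSO mean; each point is 1 library, coloured by treatment and shaped by replicate number. Scd2 lies highest at 243 to 274 CPM per kb with DMSO, and Acss2 lies lowest at 3.30 to 4.83.

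The comparison asks how this pathway stood in granule neuron cultures treated with the EZH2 inhibitor, in bulk RNA of all their cells. The enzyme genes Acly, Acaca, Fasn, Scd1, Scd2, Fads1 and Fads2, had higher CPM in each GSK-126 library than in any DMSO library, whereas Srebf1, Elovl6 and Acss2 overlapped between groups. These 7 of 10 compare with 5.43% of all genes tested. The log2 CPM was higher under GSK-126 in 3 of 3 pairs for 8 of 10 genes, against 19.7% of all genes tested. The median log2 fold change of the 10 genes was 0.37, and 0.38 with the replicate number as a block, against -0.00 over all 16343 genes in both fits. The differences were small, and the highest ratio of group means was 1.46 for Scd1.

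With treatment as the only term, 0 of the 10 genes were called higher and 0 lower by edgeR (quasi-likelihood test, threshold 0.05 on the Benjamini-Hochberg adjusted p), as were 0% of all genes tested in either direction. An unadjusted p under 0.05 was found for 6 of the 10, and for 981 genes, or 6.0%, of all tested. With the replicate block, 3 were called higher, Fasn, Scd1 and Fads1, against 2.23% of all genes, and 0 were called lower, against 1.42%. DESeq2 called 1 higher without the block (Scd1; 0.282% of all genes) and 6 with it (Acly, Fasn, Scd1, Scd2, Fads1 and Fads2; 3.25% of all genes). The count with the edgeR block depended on single pairs: it was 7 without replicate 1 and 0 without replicate 2 or without replicate 3.

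**Figure D2:**
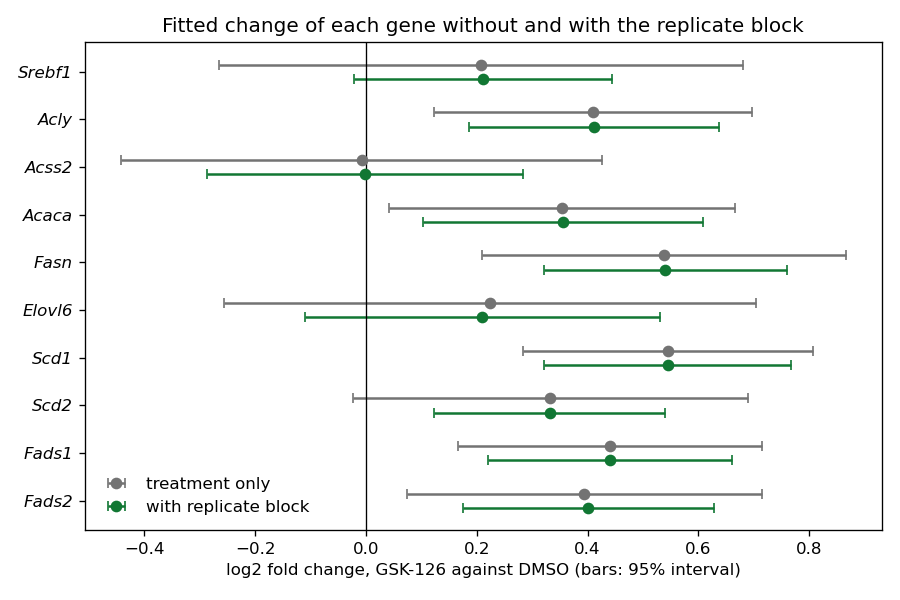
Fitted log2 fold change of each gene, GSK-126 against DMSO, with its 95% interval, from edgeR with treatment only (grey) and with the replicate block (green). With the block the interval lies above 0 for 7 genes and includes 0 for Srebf1, Acss2 and Elovl6.

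Markers of some cell types differed with the treatment too. With the block, 6 of the 9 granule neuron markers were called lower, against 1.42% of all genes tested. The summed level of the 9 ran from 3967 to 5954 CPM with DMSO and from 2797 to 4388 with GSK-126. Of the 7 fibroblast and mural markers 3 were called higher, against 2.23% of all genes tested. The summed level of the 7 ran from 7067 to 9396 CPM with DMSO and from 9543 to 10633 with GSK-126, without overlap. None of the 9 astrocyte markers was called with edgeR in either fit (0 of 9, also with DESeq2), and their sum followed the replicate number, at 7299, 2414 and 4407 CPM with DMSO and 7561, 2517 and 3899 with GSK-126 in replicates 1, 2 and 3. Other non-neuronal lists each held 1 gene called higher with the block and 0 called lower. These were Cspg4 of 12 oligodendrocyte lineage markers (log2 fold change 0.89), C1qb of 7 microglia markers tested (0.73) and Flt1 of 4 endothelial markers tested (1.33). In these lists 4, 2 and 1 genes had a negative blocked log2 fold change, among them Cdh5 of the endothelial markers (-0.30, lower in 3 of 3 pairs). The summed levels of the lists overlapped between the groups, at 548 to 830 and 615 to 963 CPM, 224 to 368 and 262 to 580 CPM, and 47.0 to 73.6 and 55.1 to 73.8 CPM with DMSO and GSK-126. The median blocked log2 fold change was -0.58 for the granule neuron, 0.38 for the fibroblast and mural and 0.04 for the astrocyte markers. It was 0.17, 0.24 and 0.49 for the oligodendrocyte lineage, microglia and endothelial markers, and 0.38 for the 10 fatty acid genes. The part of these shifts in the values of the fatty acid genes was not tested.

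The level of the regulator followed the replicate number in both groups. Srebf1 (GRCm38 chr11:60199089-60222581, minus strand) had 124, 78.3 and 104 CPM with DMSO and 144, 96.2 and 113 with GSK-126 in replicates 1, 2 and 3. Replicate 1 was highest and replicate 2 lowest each time, so the groups overlapped although all 3 pairs were higher under GSK-126. Its log2 fold change with the block was 0.21 (95% interval -0.02 to 0.44, edgeR adjusted p 0.354; 0.885 without the block). It ran from 0.03 to 0.38 when single libraries were left out of the fit without a block. The count pools all Srebf1 transcripts, so the forms SREBP1a and SREBP1c were not separated, and Rai1, on the other strand, covers 1.93% of its exon bases.

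Of the acetyl-CoA genes, Acly, which uses citrate, was higher in each GSK-126 library than in any DMSO library. Acss2, which uses acetate, was not. Acly (chr11:100476353-100528000, minus strand) had 189, 181 and 211 CPM with DMSO and 243, 264 and 265 with GSK-126. The lowest GSK-126 library thus lay above the highest DMSO library, and pairs 1, 2 and 3 differed by 1.29-, 1.46- and 1.26-fold. Its log2 fold change was 0.41 in both fits (SE 0.103 with the block), and its edgeR adjusted p of 0.0532 with the block missed the threshold (0.806 without). Acss2 (chr2:155517948-155585724, plus strand) had 46.7, 49.1 and 33.6 CPM with DMSO and 41.7, 50 and 37.0 with GSK-126. It was higher in 2 pairs and lower in 1, and the blocked 95% interval of its log2 difference ran from -0.29 to 0.28 (edgeR adjusted p 0.998). Genes on the other strand overlap 9.12% of its exons, more than for any other of the 10.

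**Figure D3:**
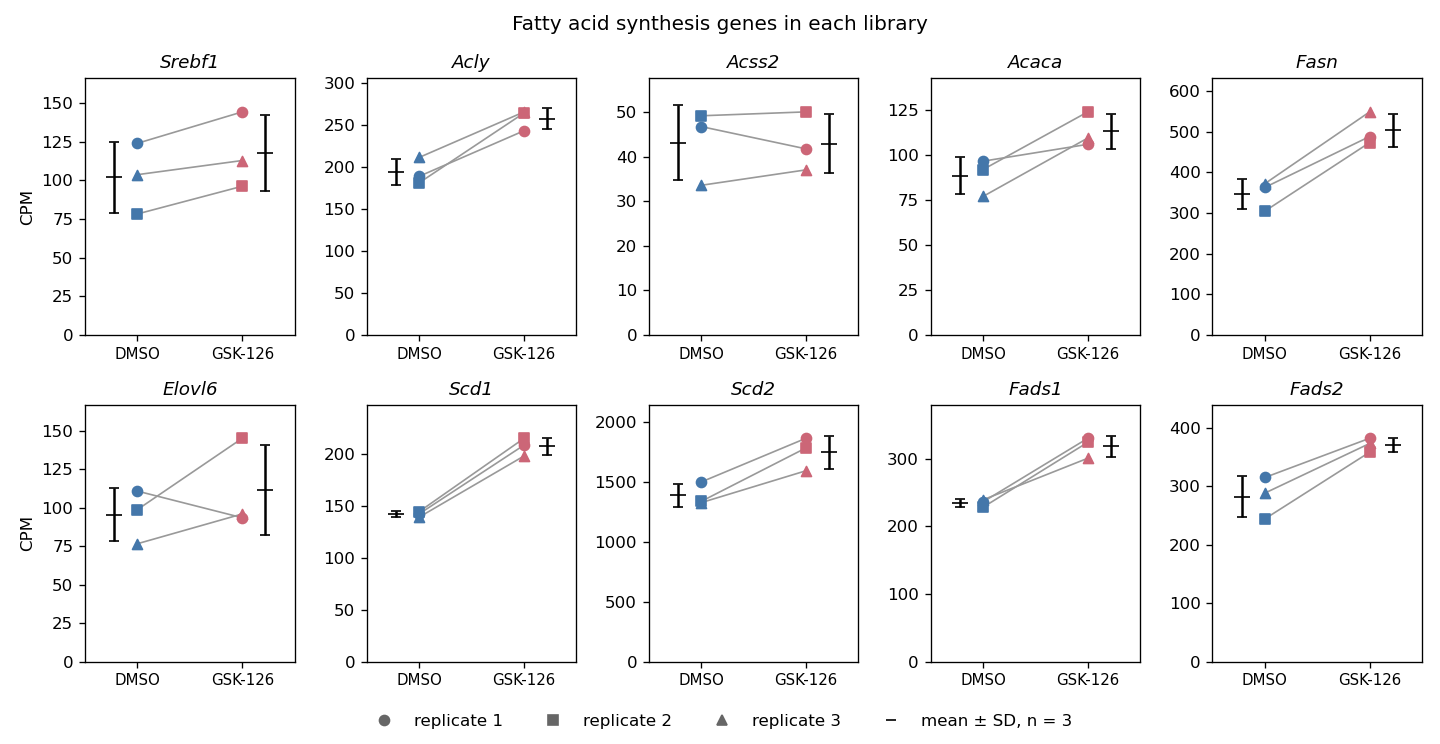
CPM of the 10 genes in each library (vertical axes from 0, 1 panel a gene); points are libraries shaped by replicate number, grey lines join the libraries of a pair, and black bars give mean ± SD (n = 3). The lines rise in all 3 pairs for 8 genes, while Acss2 and Elovl6 each have 1 pair, replicate 1, that falls.

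Both enzymes of chain assembly were higher under GSK-126, Fasn by more than Acaca. Fasn (chr11:120805846-120824547, minus strand) had 363, 304 and 372 CPM with DMSO and 488, 473 and 548 with GSK-126. The group means were 346 ± 36.6 and 503 ± 39.9 CPM (SD, n = 3), a ratio of 1.45, and no GSK-126 library reached down to the DMSO range. With the block Fasn rose by 0.54 on the log2 scale (SE 0.0998), with an edgeR adjusted p of 0.0143, against 0.768 without it. Acaca, whose product is the building block that Fasn uses (chr11:84129672-84401651, plus strand), had 96.8, 92.1 and 77.2 CPM with DMSO and 106, 124 and 110 with GSK-126. Its groups were also separate, by a narrow margin in pair 1, where the ratio was 1.10 against 1.35 and 1.42 in pairs 2 and 3. It did not pass the threshold (log2 fold change 0.36, SE 0.115, edgeR adjusted p 0.135 with the block and 0.814 without). Whether the changes of Fasn and Acaca differ was not tested.

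Promoter windows, from 250 bases before to 50 after a RefSeq start site on GRCm38.p6, were at hand for 7 of the 10 genes (9 windows, 3 of them of Srebf1). No window was at hand for Scd1, Scd2 and Fads1. Scd1 and Fads1, which were called with the edgeR block, were thus not searched, nor was Scd2. The windows were searched on both strands for TCACNCCAC, the core of a sterol regulatory element to which SREBPs bind, for the E-box CACGTG, for the NF-Y box CCAAT and for the GC box GGGCGG. An NF-Y box can share bases with its own reverse complement, and in the stretches shown none of them overlaps a GC box. TCACNCCAC was in 0 of the 9 windows and in 1.24% of all 32851 windows, and CACGTG was in 0 and in 7.15%. The Acaca window (chr11:84195188-84195487) lies inside the gene, whose annotated start is at 84129672. The sequence around that start was not searched. CCAAT was in 5 windows, of Srebf1, Acly, Acss2 and Fasn, against 37.4% of all, and GGGCGG was in 5, of Srebf1, Acly, Acss2 and Fads2, against 35.7% of all. The 150 bases before the start are shown for Fasn, which was called with the block, for Acly, which lay just outside the threshold, and for Acss2, whose groups overlapped, with CCAAT and GGGCGG or their reverse complements in capitals. The stretches are chr11:120824548-120824697 (minus strand), chr11:100528001-100528150 (minus strand) and chr2:155517893-155518042 (plus strand), each written from -150 to -1 on the gene's strand.
Fasn: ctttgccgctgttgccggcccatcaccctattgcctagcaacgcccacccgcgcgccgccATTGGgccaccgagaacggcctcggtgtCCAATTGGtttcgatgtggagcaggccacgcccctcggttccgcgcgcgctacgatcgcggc
Acly: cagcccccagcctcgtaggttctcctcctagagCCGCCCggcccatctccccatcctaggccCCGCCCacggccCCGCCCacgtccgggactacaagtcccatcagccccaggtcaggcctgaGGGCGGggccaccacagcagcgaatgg
Acss2: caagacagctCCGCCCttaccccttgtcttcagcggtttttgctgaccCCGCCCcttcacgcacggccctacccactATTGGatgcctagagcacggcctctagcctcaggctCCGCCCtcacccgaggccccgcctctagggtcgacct

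Fasn held 3 CCAAT matches between -90 and -55 and no GC box, and 2 of the 3 share bases on opposite strands. Acly held 4 GC boxes upstream of the start and 1 CCAAT downstream of it, at 38 to 42. Acss2 held 1 CCAAT at -73 to -69 beside its GC boxes, so these boxes were present in front of a gene that was higher in each GSK-126 library and in front of one that was not. These matches describe letters and were not tested for binding.

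Elongation and the first desaturation step differed from each other in how steady they were. Elovl6 (chr3:129532355-129638495, plus strand) had 111, 98.8 and 76.6 CPM with DMSO and 93.4, 145 and 95.9 with GSK-126. GSK-126 replicate 2 alone lay above the DMSO range, and pair 1 went down. The blocked log2 fold change was 0.21 with an SE of 0.146 (edgeR adjusted p 0.520; 0.880 without the block), and it became -0.01 in the fit without a block when GSK-126 replicate 2 was left out.

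Scd1 (chr19:44394455-44407879, minus strand) varied least between the DMSO replicates, with 142, 145 and 139 CPM, against 209, 215 and 198 with GSK-126. The coefficient of variation was 1.89% and 4.14%, and pairs 1, 2 and 3 differed by 1.46-, 1.49- and 1.42-fold. With the block Scd1 rose by 0.54 on the log2 scale (SE 0.101), with an edgeR adjusted p of 0.0150, against 0.465 without it, and it was the 1 gene of the 10 that DESeq2 called without the block (adjusted p 0.0235). Scd2, its neighbour on the same chromosome and the most abundant of the 10 (chr19:44293674-44306864, plus strand), had 1499, 1337 and 1326 CPM with DMSO and 1864, 1783 and 1592 with GSK-126. The groups did not overlap, and the log2 fold change with the block was 0.33 (SE 0.0946, edgeR adjusted p 0.0888; 0.825 without the block).

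The ratio of the counted reads of Scd2 and Scd1 was also compared, without the reads that align to several places. Per kilobase, Scd2 exceeded Scd1 by 9.43-, 8.28- and 8.53-fold with DMSO and by 8.0-, 7.42- and 7.20-fold with GSK-126 in replicates 1, 2 and 3. The ratio was lower under GSK-126 in 3 of 3 pairs and without overlap of the groups (8.75 ± 0.602 and 7.54 ± 0.414, SD, n = 3). This ratio was picked after the values were seen and was not tested.

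The desaturases of polyunsaturated chains lie close together on chromosome 19 and were both higher under GSK-126. Fads1 (chr19:10182888-10196877, plus strand), which adds the double bond at the delta-5 position, had 236, 228 and 239 CPM with DMSO and 330, 324 and 301 with GSK-126. The spread within each group was small against the distance between them, and Fads1 rose with the block by 0.44 on the log2 scale (SE 0.101), with an edgeR adjusted p of 0.0359, against 0.768 without it. Fads2 (chr19:10062765-10101746, minus strand), the delta-6 desaturase that acts before it, had 315, 244 and 288 CPM with DMSO and 382, 358 and 373 with GSK-126. Its groups did not overlap either, but DMSO replicate 2 lay well below the other DMSO libraries, and pair 2 had the highest ratio (1.47 against 1.21 and 1.29 in pairs 1 and 3). Fads2 stood just outside the threshold with the block (log2 fold change 0.40, SE 0.103, edgeR adjusted p 0.0589; 0.814 without). Per kilobase, Fads2 exceeded Fads1 by a factor of 1.76 ± 0.193 in the DMSO libraries and of 1.71 ± 0.10 in the GSK-126 libraries (SD, n = 3), and these values overlapped.

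Summed over the 10 genes, the level was 3122, 2757 and 2867 CPM with DMSO and 3901, 3833 and 3633 with GSK-126. The groups were separate, with ratios of 1.25, 1.39 and 1.27 in pairs 1, 2 and 3. Scd2 made up 47.6 ± 1.17% of the counts of the 10 genes in the DMSO group and 46.0 ± 2.02% in the GSK-126 group (SD, n = 3). Without Scd2 the sum was 1528 ± 102 and 2043 ± 6.66 CPM, also without overlap.

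The 10 genes shared this profile to different degrees. Each gene was set against the mean of their standardised log2 CPM over the 6 libraries, which holds the gene itself. Pearson's r was 0.97 for Scd2, 0.95 for Scd1, 0.95 for Fads1, 0.92 for Acaca and 0.91 for Fads2. It was 0.86 for Fasn, 0.84 for Acly, 0.60 for Elovl6, 0.48 for Srebf1 and 0.22 for Acss2. Among 13139 other genes with a mean of at least 5 CPM, those most like this mean over the 6 libraries were Ptpn23, Fam50a, Fbxo10, Tram2 and Insm1, with r from 0.98 to 0.99. They are given as a description, since all points share libraries and treatment.

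Genes around the pathway were taken from lists set by function, which were chosen with earlier results of these data known. Without the block, edgeR called 0 genes in each of these lists, so the edgeR calls given for them rest on the pairing. DESeq2 without the block called Insig1 higher among the regulators (DESeq2 adjusted p 0.0244). Among the sterol genes it called Fdft1 (1.3e-05) and Hmgcs1 (0.0482), and it called 0 in the other lists of lipid genes. Among regulators of SREBP and other lipogenic factors, 2 of 10 tested were called higher with the block, against 2.23% of all genes tested. In this list 0 were called lower, against 1.42%. Insig1, which holds SREBPs in the endoplasmic reticulum and is itself a target of SREBPs, rose from 127 ± 15.9 to 215 ± 32.6 CPM (SD, n = 3; blocked log2 fold change 0.75, SE 0.102, edgeR adjusted p 0.00405). Srebf2, the gene of the sterol-controlling paralog, went from 361, 369 and 330 CPM in the DMSO libraries to 449, 524 and 458 in the GSK-126 libraries. With the block it rose by 0.43 on the log2 scale (SE 0.0995), with an edgeR adjusted p of 0.0384. Unlike those of Srebf1, its groups did not overlap.

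Of 6 genes that export citrate or supply NADPH, 0 were called lower with the block and 1 higher, against 2.23% of all genes tested. This was Idh1, the cytosolic NADP-dependent isocitrate dehydrogenase, which rose from 108 ± 10.4 to 150 ± 5.98 CPM (SD, n = 3; blocked log2 fold change 0.48, edgeR adjusted p 0.0412). Other elongation and desaturation genes (13 tested), acyl-CoA synthetases (5), glycerolipid synthesis (13), mitochondrial fatty acid synthesis (5) and fatty acid oxidation (12) had 0 genes called in either direction with edgeR and with DESeq2, with or without the block. Their median blocked log2 fold changes were 0.19, 0.18, -0.02, -0.01 and 0.05.

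**Figure D4:**
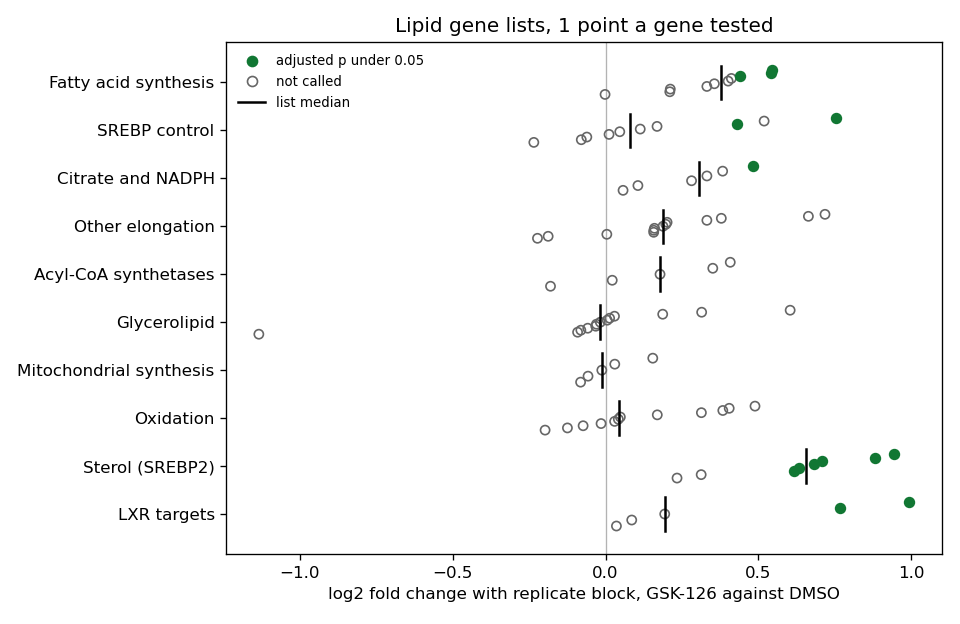
Blocked log2 fold change, GSK-126 against DMSO, for the genes tested in 10 lists of lipid genes; each point is a gene, filled where its edgeR adjusted p was under 0.05, and black bars are list medians. The median is 0.38 for the fatty acid synthesis genes, 0.66 for the sterol genes and -0.02 for glycerolipid synthesis.

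Genes controlled mainly by SREBP2 stood higher than the fatty acid genes in the same fit. Of 8 sterol genes, 6 were called higher with the block, against 2.23% of all genes tested, and 0 lower, against 1.42%. The median blocked log2 fold change of the 8 was 0.66, beside 0.38 for the fatty acid genes. Fdft1, which makes squalene, rose from 92.2 ± 11.5 to 176 ± 2.82 CPM (SD, n = 3; blocked log2 fold change 0.94, SE 0.115, edgeR adjusted p 0.00245). Idi1 (0.88), Stard4 (0.71) and Hmgcs1 (0.63) rose as well, and their adjusted p in edgeR's blocked fit ran from 0.0110 to 0.0231. Without the block 0 of the 8 were called with edgeR and 2 with DESeq2. The difference between both medians was not tested, and the lists rest on the same libraries.

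LXR is a sterol-activated receptor that also switches on Srebf1. Of 5 of its other targets, 2 were called higher with the block, Abca1 and Mylip, against 2.23% of all genes tested. Abca1, the cholesterol exporter, rose from 257 ± 81.6 to 507 ± 135 CPM (SD, n = 3; blocked log2 fold change 0.99, SE 0.101, edgeR adjusted p 0.000830).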

How the data were processed

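The 6 libraries (DMSO and GSK-126, n = 3 each) were grouped by their labels. The authors deposited raw read counts per gene symbol, 1 table a library. Per the labels and the study's methods, read pairs were trimmed with Trimmomatic 0.38, aligned to GRCm38 with STAR 2.7.2b and counted over exons with HTSeq; the strand setting is not given in the sources used here, so reads of overlapping antisense genes cannot be told apart. The 5 summary rows, including reads that the count assigned to no gene feature (44.8% to 46.7% of fragments), were left out.

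Genes passing filterByExpr (16343) were scaled with TMM factors and tested with edgeR 4.0.16 (glmQLFit with legacy=TRUE, treatment as the only term), with Benjamini-Hochberg adjustment over all genes. The fits were also run on simulated data with and without differences between pairs, and no outcome of those runs is given here. Differences between pairs count as noise without the block, where the common biological coefficient of variation was 0.243, against 0.142 with it. DESeq2 1.42.0, a replicate block, other filters and factors, and fits without single libraries were alternatives. Log2 CPM used a prior count of 2. A replicate is a culture from pooled litters. Deviations from the group means correlated by 0.351, 0.503 and 0.517 for libraries of the same number and by -0.411 to -0.0103 otherwise. The numbers were taken to pair the libraries. Deviations in a group sum to 0 for each gene, so positive values for the same number push the others below 0. The blocked fits used these same libraries. Lengths and coordinates came from GENCODE M21 and promoters from RefSeq (GRCm38.p6). The genes, lists and tests were chosen with earlier results of these data known. Named beside the 10 genes were those called in a list with or without the block, at most 6 a list, and the 5 most similar profiles; some genes that this rule names are not reported here. Of the 6 mitochondrial synthesis genes listed, 5 were matched by symbol. R 4.3.3 and Python 3.11.15 were used.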

Additional observations from a re-analysis of the deposited data

How the results depend on the processing

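Without a block, edgeR called 0 genes in either direction with RLE size factors, with a filter of at least 1 CPM in 3 libraries and in the 6 fits without a single library. Without a filter it called 55 higher and 30 lower, of which 0 were among the 10 fatty acid genes, and DESeq2 called 46 and 13, of which 1 was. With the replicate block edgeR called 365 higher and 232 lower, and DESeq2 with the replicate block called 408 and 266; 3 and 6 of the 10 genes were among those called higher. When the replicate block was fitted to 2 of the 3 pairs, 396, 125 and 211 genes were called higher and 308, 53 and 148 lower without replicates 1, 2 and 3, and 7, 0 and 0 of the 10 genes were called higher. In none of the 16 fits was any of the 10 called lower, and the median of the 10 stayed between 0.34 and 0.44. The sign of Acss2 turned, with log2 values of 0.0023 in DESeq2 with the replicate block, 0.081, 0.0012 and -0.068 with the replicate block and without replicates 1, 2 and 3, and -0.15 to 0.11 without a single library. Elovl6 ran from -0.010 to 0.35 without a single library, lowest without GSK-126 replicate 2. The cause was not tested. With all 3 pairs in the fit, the replicate block changed the edgeR calls of Fasn, Scd1 and Fads1 alone among the 10. With DESeq2 it changed those of Acly, Fasn, Scd2, Fads1 and Fads2. The motif TCACNNCAC was in 0 of the 9 promoter windows too. Depth limits the low genes more than these 10, which had 284 or more counts in each library; a floor of 3 counts was 0.249 to 0.372 CPM and covers counting error only.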
